A study of Mus musculus with 8 samples.

Results

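Glutathione and antioxidant defence genes were followed in the duodenum of mice that lack IκBα in the intestinal epithelium. The 39 genes were listed by name, with earlier results of these data known. Of them 38 had a probe set, 1 each, among the 22206 probe sets of the array, which name 19505 genes. No probe set carried the symbol Gsta1, which was not analysed here. By role they were 15 measured soluble glutathione transferases (of 16 listed), 3 microsomal transferases, 6 genes of glutathione synthesis and recycling, 8 genes of peroxide and superoxide removal and 6 genes that comprised NRF2, its inhibitor KEAP1 and further NRF2 targets.

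The study measured RNA of 8 untreated mice on Clariom S arrays, 4 knockouts and 4 wild types in 4 pairs of littermates. Knockouts combined Villin-Cre with floxed Nfkbia, the gene of IκBα, which restrains NF-κB. The villin promoter drives Cre in the gut epithelium, so other cells of the tissue keep the gene. Whether the wild types carried Cre or floxed alleles is not stated in the labels. Pairs 1 to 4 were 8, 11, 8 and 9 weeks old. By label the knockouts were male, female, male and female, and their wild-type siblings male, female, female and male. RNA came from homogenized frozen tissue, given as duodenum in the series design and as small intestine in the labels. Of such whole tissue, fewer cells of a type and less RNA per cell cannot be told apart.

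Glutathione is a tripeptide that carries a reactive cysteine and is the main soluble thiol of cells. Glutathione transferases join it to electrophiles, glutathione peroxidases use it to reduce peroxides, and glutathione reductase turns the oxidized form back. The transcription factor NRF2 (gene Nfe2l2), which KEAP1 marks for degradation in unstressed cells, binds antioxidant response elements and raises many of these genes, among them Nqo1, Gclc, Gclm and several transferases. In the small intestine they act at a surface exposed to food-borne electrophiles and bile.

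The deleted gene was examined as a check of the labels. Nfkbia had log2 values of 6.82, 6.65, 7.72 and 6.65 in knockouts 1 to 4 and of 9.75, 9.91, 9.01 and 9.78 in wild types 1 to 4. All knockouts lay below all wild types, and pair 3 differed least. The 14 epithelial markers had a mean log2 level between 11.7 and 11.8 in every array of both groups. Single markers differed by −0.34 to 0.54, with 5 higher and 5 lower in all 4 pairs (16.5% and 17.9% of all probe sets). At a limma adjusted p under 0.05, 2 were higher (14.3%, against 3.16% of all probe sets) and 0 lower. An unadjusted p under 0.05 was found for 9 of them, against 27.5% of all probe sets. The deposited values had been brought to nearly equal means in the 4 pairs, a step that no source used here records, so a high knockout goes with a low sibling by construction. Differences inside a pair are therefore the measure used throughout. Y-linked genes did not separate the labelled sexes inside pairs 3 and 4, where the largest difference was 0.25 (log2, Uty), and their means differed instead between pairs 1 and 2 and pairs 3 and 4 (for Eif2s3y 7.32 and 6.85).

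Of the 38 measured genes, 12 differed between knockout and wild type at a limma adjusted p under 0.05, which is 31.6%, against 5.86% of all probe sets. Gsta3, Gsr, Gpx2, Gstm1, Hmox1, Nqo1, Gstm2, Gstp1 and Gpx1 rose, and Hagh, Gstk1 and Gclm fell. The share that rose was 9 of 38, where 3.16% of all probe sets rose, and the share that fell was 3 of 38, where 2.7% did. The median difference of the 38 genes, knockout minus wild type, was 0.214 on the log2 scale, against −0.015 over all probe sets. Centred on housekeeping genes, these medians were 0.0474 and −0.181. Of the 11 housekeeping genes measured, 10 had a mean difference above 0 (median 0.192), so centring on them lowered every difference. After this centring 14 members passed (36.8%), against 25.5% of all probe sets. Of these 9 rose (23.7%, against 2.24% of all) and 5 fell (13.2%, against 23.3% of all), so the share that fell was below that of all probe sets. Of all calls 54% were higher as deposited, 8.78% after centring on housekeeping genes and 35.8% after centring on epithelial genes. Among all members 21 were higher in all 4 pairs, where 16.5% of all probe sets were, and 6 were lower in all 4 pairs, where 17.9% were. In 26 members the knockout and wild-type arrays did not overlap, where 33.1% of all probe sets did not. With nearly equal pair means, groups that do not overlap largely repeat that all 4 pairs moved 1 way, as 34.4% of all probe sets did. The same holds for the single genes below. The 12 genes past the threshold were counted on 4 pairs, and 5, 4, 7 and 3 passed without pair 1, 2, 3 and 4. With pairs 1 and 2 alone, or pairs 3 and 4 alone, 0 passed by limma, while 16 (42.1%) and 20 (52.6%) had an unadjusted p under 0.05, against 23.8% and 18.7% of all probe sets. With all 4 pairs 24 members (63.2%) had such a p, against 27.5% of all probe sets.

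**Figure D1:**
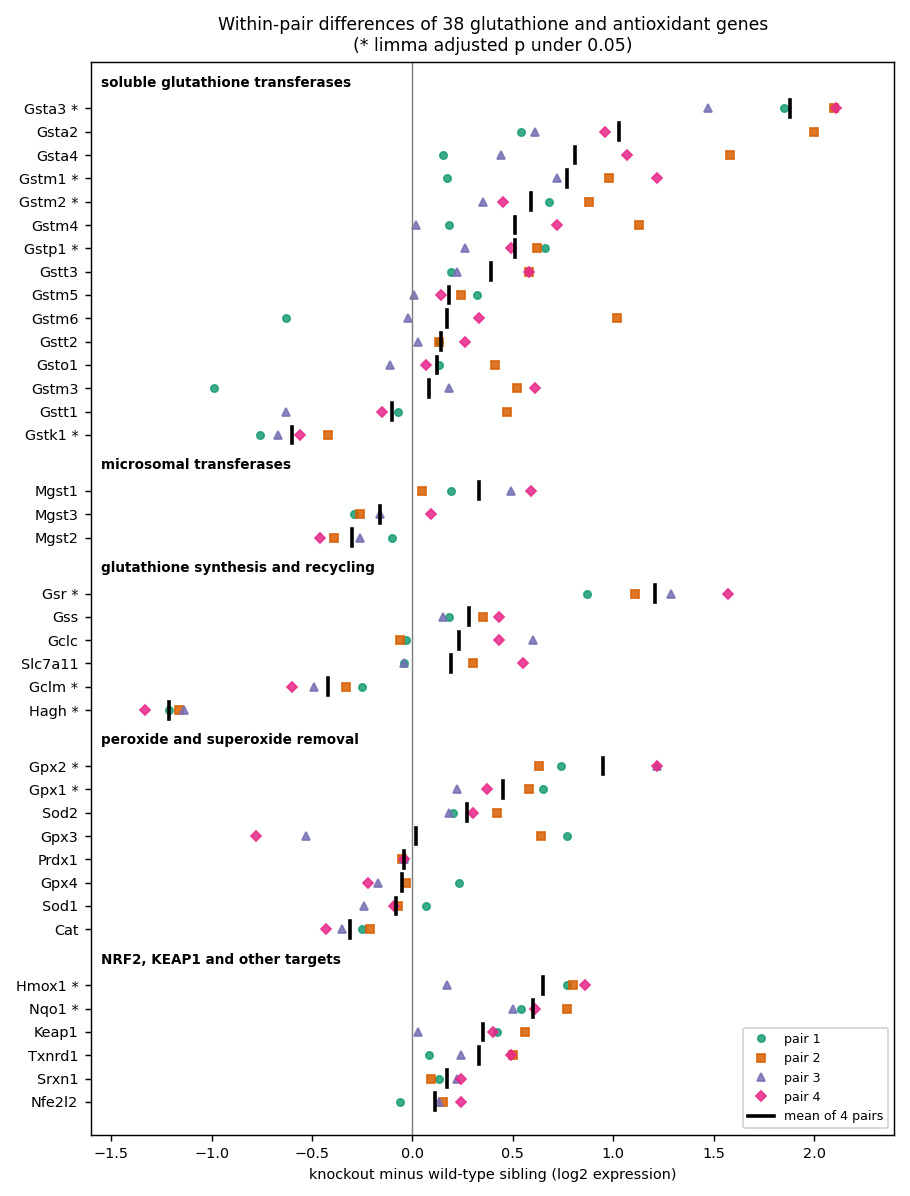
Difference between knockout and wild-type sibling (log2 expression, horizontal axis) of each of the 38 measured genes, grouped by role, with 1 symbol per pair and a bar for the mean of the 4 pairs. Gsta3 (1.88), Gsr (1.21) and Gpx2 (0.95) had the largest means past the threshold on the higher side, and Hagh (−1.21) lay farthest on the lower side.

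Promoter windows were read for genes that moved in opposite directions, because NRF2 acts through antioxidant response elements near many of them. RefSeq windows (GRCm38.p6) from 250 bases before to 50 after the gene start were at hand for 34 of the 39 genes. The core of the element was searched as TGACNNNGC on both strands, letters that also take in some AP-1 sites (TGACTCA followed by GC). It stood in a window of 10 of 34 members (29.4%), against 3781 of 27025 genes (14%), and in 10 of 46 member windows (21.7%), against 12.4% of all windows. Among genes that rose it stood in 1 of 7 with a window (Gsta3), among those that fell in 2 of 3 (Gclm and Hagh), and among those past no threshold in 7 of 23. The κB consensus, the NF-κB binding motif, stood in 2 of 34 members (Prdx1 and Sod2), against 5.14% of genes. The 4 windows below are those of the transferase and the quinone reductase that rose and of 2 genes that fell, with matches to the element in capitals, each written 5′ to 3′ on the strand of the gene. The Gsta3 window is chr1:21240335-21240634 (plus strand), with the match beginning 121 bases before the start. The Nqo1 window is chr8:107403156-107403455 (minus strand) and holds no match. The Gclm window is chr3:122245307-122245606 (plus strand), with the match 134 bases before the start, in the reverse orientation. The Hagh window printed is chr17:24850417-24850716 (plus strand), with the match 20 bases after the start of this transcript. Another Hagh window, chr17:24850240-24850539, holds no match and is not printed.
Gsta3: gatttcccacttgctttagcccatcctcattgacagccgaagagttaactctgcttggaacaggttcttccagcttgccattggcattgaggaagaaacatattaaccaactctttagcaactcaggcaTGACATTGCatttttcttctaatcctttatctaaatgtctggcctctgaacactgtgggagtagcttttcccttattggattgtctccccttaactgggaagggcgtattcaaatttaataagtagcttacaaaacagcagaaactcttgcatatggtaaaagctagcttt
Nqo1: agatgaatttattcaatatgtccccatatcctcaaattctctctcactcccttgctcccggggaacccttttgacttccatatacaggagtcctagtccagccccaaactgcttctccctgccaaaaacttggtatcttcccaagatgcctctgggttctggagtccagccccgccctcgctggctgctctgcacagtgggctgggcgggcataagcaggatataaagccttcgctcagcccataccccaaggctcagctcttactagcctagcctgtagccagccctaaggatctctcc
Gclm: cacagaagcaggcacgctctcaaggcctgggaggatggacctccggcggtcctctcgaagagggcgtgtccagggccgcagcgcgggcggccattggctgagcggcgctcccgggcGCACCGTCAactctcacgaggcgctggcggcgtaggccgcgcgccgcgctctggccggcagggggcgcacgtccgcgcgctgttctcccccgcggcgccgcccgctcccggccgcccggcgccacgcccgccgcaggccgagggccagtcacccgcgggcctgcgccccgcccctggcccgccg
Hagh: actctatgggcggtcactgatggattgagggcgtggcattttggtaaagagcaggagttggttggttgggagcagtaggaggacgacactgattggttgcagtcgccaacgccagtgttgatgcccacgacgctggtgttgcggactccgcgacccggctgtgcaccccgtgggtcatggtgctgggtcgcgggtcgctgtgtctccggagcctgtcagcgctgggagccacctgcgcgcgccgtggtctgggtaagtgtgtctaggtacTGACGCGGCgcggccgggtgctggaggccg
A match is a description of letters and not a bound site. Binding was not measured. Sequence outside these windows was not searched, so a gene without a match here may hold one elsewhere.

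Alpha-class transferases, which conjugate electrophiles and reduce lipid hydroperoxides, were higher in every pair. Gsta3 had log2 values of 9.32, 9.48, 9.19 and 9.56 in knockouts 1 to 4 and of 7.47, 7.38, 7.72 and 7.45 in wild types 1 to 4. Every knockout lay well above every wild type. The difference was 1.88 ± 0.30 (log2, SD, n = 4 pairs), a 3.69-fold rise (limma adjusted p = 0.00222). It ranked 32 among all 22206 probe sets from the highest difference down, and it passed the threshold with any 1 pair left out (adjusted p from 0.00243 to 0.0162).

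Gsta2 and Gsta4, the other alpha-class members measured, did not pass the threshold. Gsta2 had 11.26, 12.05, 11.51 and 11.75 in knockouts and 10.72, 10.05, 10.9 and 10.79 in wild types. The groups did not overlap, but the pairs ranged from 0.54 to 2.0, with a mean of 1.03 ± 0.674 (limma adjusted p = 0.0558). After centring on housekeeping or epithelial genes Gsta2 passed (0.0319 and 0.0488), within a range of 0.00674 to 0.215 over all settings. Gsta4, whose product clears the lipid peroxidation product 4-hydroxynonenal, had 10.12, 10.9, 10.47 and 10.84 against 9.97, 9.32, 10.03 and 9.77. Its difference was 0.81 ± 0.641 (limma adjusted p = 0.0823), and it came closest to 0 in pair 1 (0.15). Whether the alpha-class probe sets measure their genes separately was not tested, so the values of single alpha genes are uncertain.

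The mu class lies in 1 cluster on chromosome 3, in the order Gstm5, Gstm7, Gstm6, Gstm3, Gstm2, Gstm1 and Gstm4, with no other protein-coding gene between them. Of its 6 members listed here 2 passed the threshold, where 5.86% of all probe sets did. Gstm1 had 11.15, 11.64, 11.56 and 11.87 in knockouts and 10.98, 10.66, 10.84 and 10.65 in wild types. All knockouts were above all wild types, although in pair 1 the siblings were only 0.17 apart. The rise was 0.77 ± 0.451 (1.71-fold, limma adjusted p = 0.0480). It passed without pair 1 (adjusted p = 0.0369) and was lost without pair 2, 3 or 4 (0.153, 0.108 and 0.117).

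Gstm2, next to Gstm1, had 8.88, 8.97, 8.77 and 8.86 in knockouts and 8.2, 8.09, 8.42 and 8.41 in wild types. The groups did not overlap, and each pair differed by 0.35 or more. The rise was 0.59 ± 0.238 (1.51-fold, limma adjusted p = 0.0319), and the call was lost without any 1 pair (adjusted p from 0.0501 to 0.103). The other mu genes did not pass, with mean differences from 0.08 (Gstm3) to 0.51 (Gstm4). Gstm3 and Gstm6 ran in opposite directions in the pairs, −0.99 and −0.63 in pair 1 against 0.52 and 1.02 in pair 2. Mu genes are close paralogs, and which of them each probe set reads was not analysed here, so the values of single mu genes are uncertain.

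**Figure D2:**
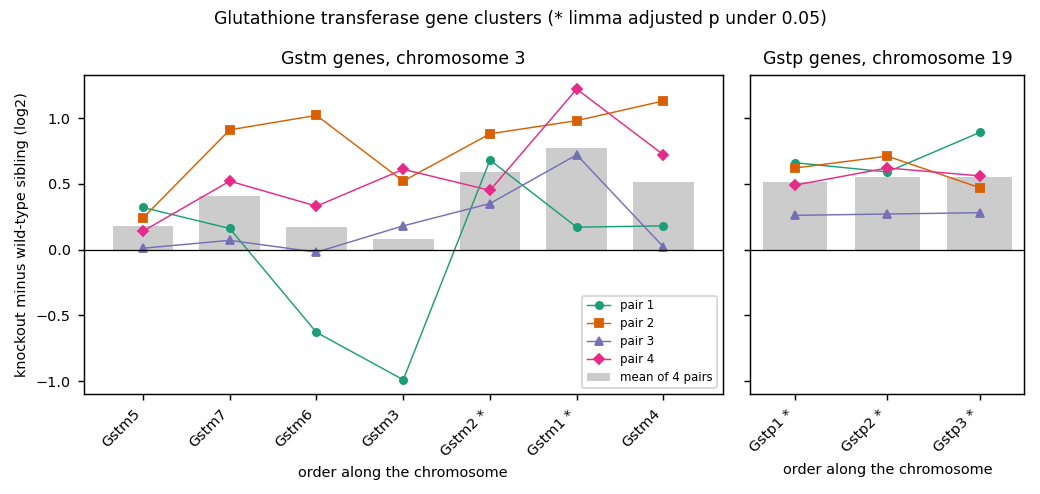
Differences between knockout and wild-type sibling (log2, vertical axis) for the mu-class genes on chromosome 3 and the pi-class genes on chromosome 19 in chromosomal order, with a line per pair and a bar for the mean of 4 pairs. The 3 pi genes had means of 0.51, 0.55 and 0.55, while the mu genes ran from 0.08 to 0.77 and pair 1 fell to −0.99 at Gstm3.

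The pi class, which conjugates small electrophiles and is widely expressed in epithelia, rose in all 3 of its genes. Gstp1 had 11.77, 11.77, 11.61 and 11.76 in knockouts and 11.11, 11.15, 11.35 and 11.27 in wild types. The groups did not overlap, and pair 3 had the smallest difference (0.26). The rise was 0.51 ± 0.18 (1.42-fold, limma adjusted p = 0.0320). It passed without pair 3 (adjusted p = 0.0410) and was lost without pair 1, 2 or 4 (0.104, 0.119 and 0.0941). Its neighbours Gstp2 and Gstp3, outside the 39 genes, rose by 0.55 ± 0.192 and 0.55 ± 0.255 (limma adjusted p = 0.0279 and 0.0402). With 1 pair left out Gstp2 passed only without pair 3 (adjusted p = 0.0313) and Gstp3 in no case. The wild-type mean of Gstp3, 5.66, lay at the background level of 5.65, so the size of its difference is uncertain. These genes are close paralogs too, and whether their probe sets measure them separately was not tested.

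Gstk1, the kappa-class transferase of mitochondria and peroxisomes, was the 1 soluble transferase that fell. It had 9.59, 9.77, 9.76 and 9.87 in knockouts and 10.35, 10.19, 10.43 and 10.43 in wild types. Every knockout was below every wild type. The fall was −0.60 ± 0.147 (1.52-fold, limma adjusted p = 0.0183), and without any 1 pair it missed the threshold (adjusted p from 0.0556 to 0.0651). With the pair as a random block the call was also lost (adjusted p = 0.165), within a range of 0.000704 to 0.173 over all settings.

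Theta and omega transferases did not pass the threshold. Their mean differences ran from −0.10 (Gstt1) to 0.39 (Gstt3, limma adjusted p = 0.0658). Gstt3 was higher in all 4 pairs, and Gstt1 was lower in 3 of 4. Gstt2 was higher in all 4 pairs by a small amount (0.14 ± 0.0943), and Gsto1 differed by 0.12 ± 0.216. In all, 4 soluble transferases rose, 1 fell and 10 did not pass, with a median difference of 0.393. The share past the threshold was 33.3%, against 5.86% of all probe sets. Of the 15, 10 were higher in all 4 pairs, where 16.5% of all probe sets were.

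Size differed by pair within this class. The median difference of the 15 soluble transferases was 0.17, 0.62, 0.18 and 0.49 in pairs 1 to 4. In 9 of the 15 (60%) the differences of pairs 1 and 3 both lay below those of pairs 2 and 4, an order found in 7 of the other 23 members (30.4%) and in 15% of all probe sets. This order was picked after the values were seen. The RNA integrity number of the knockout minus that of its sibling was 0.9, −0.4, 0.9 and −0.7 in pairs 1 to 4, and the knockouts of pairs 1 and 3 were labelled male and those of pairs 2 and 4 female. RNA integrity and the labelled knockout sex cannot be told apart here. Y-linked genes did not separate the labelled sexes inside pairs 3 and 4. With RNA integrity beside the pair in the model, the differences were 1.94 for Gsta3, 1.12 for Gsta2, 0.925 for Gsta4 and 0.853 for Gstm1 (limma adjusted p = 0.00947, 0.0702, 0.0546 and 0.0428).

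Microsomal transferases are membrane proteins, of which Mgst1 guards against lipid peroxides and Mgst2 also makes leukotriene C4. None of the 3 passed the limma threshold, while 2 had an unadjusted p under 0.05, as did 27.5% of all probe sets. Mgst1 was higher in all 4 pairs (0.33 ± 0.252, limma adjusted p = 0.113) and Mgst2 lower in all 4 (−0.30 ± 0.158, adjusted p = 0.0836). Mgst3 differed by −0.16. Mgst2 passed in 4 of 15 other settings.

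Of the 6 genes of glutathione synthesis and recycling 1 rose, 2 fell and 3 did not pass, where 5.86% of all probe sets passed. Gsr encodes glutathione reductase, which restores reduced glutathione with NADPH. It had 12.16, 12.3, 12.36 and 12.54 in knockouts and 11.29, 11.19, 11.07 and 10.97 in wild types. All knockouts stood above all wild types, by 0.87 in the closest pair and 1.57 in the widest. The rise was 1.21 ± 0.295 (2.31-fold, limma adjusted p = 0.00811), and it passed with any 1 pair left out (adjusted p from 0.0164 to 0.0379).

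Synthesis of glutathione runs through glutamate-cysteine ligase, made of the catalytic subunit Gclc and the modifier subunit Gclm, and then through glutathione synthetase, Gss. Gclm had 10.09, 10.04, 10.02 and 9.98 in knockouts and 10.34, 10.37, 10.51 and 10.58 in wild types. All knockouts were below all wild types, and the gap was wider in pairs 3 and 4 than in pairs 1 and 2. The fall was −0.42 ± 0.157 (1.34-fold, limma adjusted p = 0.0429), and the call was lost without any 1 pair (adjusted p from 0.0836 to 0.121). Gclc differed by −0.03, −0.06, 0.60 and 0.43 in pairs 1 to 4 (mean 0.23 ± 0.331, limma adjusted p = 0.291), with pairs on both sides of 0. Gss was higher in all 4 pairs (0.28 ± 0.135, limma adjusted p = 0.0884). Slc7a11, which imports the cystine that feeds synthesis, differed by 0.19 with pairs in both directions.

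Hagh encodes glyoxalase II, the hydrolase that frees glutathione at the end of methylglyoxal detoxification. It had 7.94, 7.95, 8.02 and 7.96 in knockouts and 9.15, 9.11, 9.16 and 9.29 in wild types. The 4 pairs were close to each other, from −1.33 to −1.14, with the smallest SD of the 12 genes past the threshold. The fall was −1.21 ± 0.0852 (2.31-fold, limma adjusted p = 0.00183), and it held with any 1 pair left out (adjusted p from 0.00696 to 0.0162). Glo1, which makes the substrate of Hagh, was higher in all 4 pairs by 0.22, 0.29, 0.77 and 0.70 and did not pass (0.49 ± 0.28, limma adjusted p = 0.0574). It is named beside Hagh although chosen after its values were seen.

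**Figure D3:**
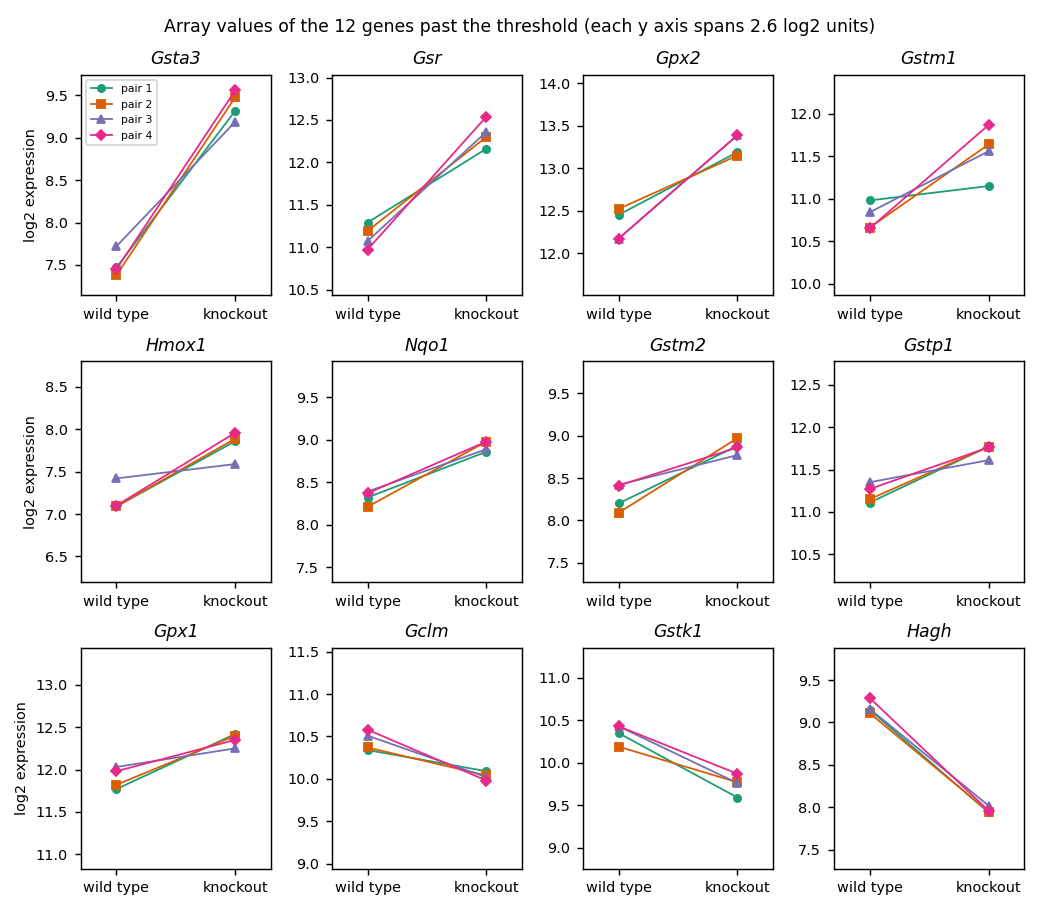
Log2 expression (vertical axis, 2.6 units in every panel) of the 12 genes past the limma threshold in the wild-type and knockout array of each pair, with a line per pair. Gsta3 and Hagh had groups far apart, such as 9.19 to 9.56 against 7.38 to 7.72 for Gsta3, while Gstm1 in pair 1 and Hmox1 in pair 3 moved by only 0.17.

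Among the 8 genes of peroxide and superoxide removal, 2 glutathione peroxidases rose and 0 genes fell (25%, against 5.86% of all probe sets). Gpx2, the selenium-dependent peroxidase typical of gut epithelium, had 13.19, 13.15, 13.39 and 13.39 in knockouts and 12.45, 12.52, 12.17 and 12.17 in wild types. Every knockout was above every wild type, and pairs 3 and 4 differed more (1.22 each) than pairs 1 and 2 (0.74 and 0.63). The rise was 0.95 ± 0.312 (1.94-fold, limma adjusted p = 0.0161). It passed without pair 1, 2 or 3 and was lost without pair 4 (adjusted p = 0.0569, with a range of 0.000298 to 0.125 over all settings).

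Gpx1, the ubiquitous cytosolic peroxidase, had 12.42, 12.4, 12.25 and 12.35 in knockouts and 11.77, 11.82, 12.03 and 11.98 in wild types. The groups did not overlap, and pairs 1 and 2 differed more than pairs 3 and 4. The rise was 0.45 ± 0.197 (1.37-fold, limma adjusted p = 0.0441). The call was lost without any 1 pair (adjusted p from 0.0623 to 0.149) and after centring on housekeeping or epithelial genes (0.0513 and 0.054).

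Cat, the peroxisomal catalase, was lower in all 4 pairs, by 0.21 to 0.43 (−0.31 ± 0.0993, limma adjusted p = 0.0601), and passed in 5 of 15 other settings. Sod2, the mitochondrial superoxide dismutase and a known NF-κB target, was higher in all 4 pairs and did not pass (0.27 ± 0.11, limma adjusted p = 0.0804). Sod1, Gpx4 and Prdx1 had mean differences between −0.08 and −0.04. Prdx1, an abundant peroxiredoxin in many tissues, differed by −0.04 or −0.05 in every pair. Gpx3, the secreted plasma peroxidase, averaged 0.02 over pairs that split, with 0.77 and 0.64 in pairs 1 and 2 and −0.53 and −0.78 in pairs 3 and 4. Adipose markers (9 of 10 measured, Lep under the background level) had median differences of 2.08, 1.64, 0.19 and −0.18 in pairs 1 to 4. Their mean level was 7.46 to 9.07 in knockouts and 6.31 to 7.61 in wild types. Smooth muscle markers (8 of 8) had medians of 0.26, 0.02, −0.565 and −0.63, with mean levels of 10.4 to 11 and 10.7 to 11. The part of either in the Gpx3 values was not tested.

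Of the 6 genes of NRF2, KEAP1 and the further targets, Nqo1 and Hmox1 rose and 0 fell (33.3%, against 5.86% of all probe sets). Nqo1, the quinone reductase often used as a readout of NRF2, had 8.86, 8.98, 8.89 and 8.98 in knockouts and 8.32, 8.21, 8.39 and 8.37 in wild types. The groups did not overlap, and each pair differed by 0.50 to 0.77. The rise was 0.60 ± 0.119 (1.52-fold, limma adjusted p = 0.0156). It passed without pair 3 (adjusted p = 0.0376) and was lost without pair 1, 2 or 4 (0.056, 0.0696 and 0.0594).

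Hmox1, the heme oxygenase that releases biliverdin, iron and carbon monoxide, had 7.86, 7.89, 7.59 and 7.96 in knockouts and 7.09, 7.09, 7.42 and 7.1 in wild types. In pair 3 the siblings were 0.17 apart, against 0.77, 0.80 and 0.86 in the other pairs. The rise was 0.65 ± 0.322 (1.57-fold, limma adjusted p = 0.0396). It passed without pair 3 (adjusted p = 0.0183) and was lost without pair 1, 2 or 4 (0.118, 0.133 and 0.113). Hmox1 is also made by macrophages, whose markers (8 of 9 measured) had medians of 0.38, 0.145, −0.13 and −0.42 in pairs 1 to 4. Their mean level was 7.97 to 8.37 in knockouts and 8.07 to 8.41 in wild types, and their part was not tested.

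The regulators themselves did not pass. Nfe2l2, the NRF2 gene, differed by 0.11 ± 0.126 (limma adjusted p = 0.385). Keap1 was higher in all 4 pairs (0.35 ± 0.226, limma adjusted p = 0.0867), with 0.03 in pair 3. Txnrd1, a thioredoxin reductase, was higher in all 4 pairs (0.33 ± 0.204, limma adjusted p = 0.0899), and Srxn1, which repairs overoxidized peroxiredoxins, differed by 0.17. All 6 genes of this group had a mean above 0, as did 10284 of all 22206 probe sets. Of the 6, 5 were higher in all 4 pairs, where 16.5% of all probe sets were. Centred on housekeeping genes, Nfe2l2 differed by −0.0514 and Srxn1 by 0.00364.

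Other genes of the pathway were taken from 4 further lists of 98 genes, of which 90 were measured. By the same limma threshold 9 rose and 5 fell, which is 15.6%, against 5.86% of all probe sets. The median difference of the 90 genes was 0.0462. Of 12 other transferase-fold genes 3 rose, the pi genes Gstp2 and Gstp3 and Gstcd (0.46 ± 0.085), the last in no fit with 1 pair left out. Gstcd, like Gstp3, had a wild-type mean of 5.66, at the background level of 5.65, so the size of its difference is uncertain. Of 20 genes of glutathione turnover and transport 1 rose and 3 fell. Abcc3, the basolateral exporter of glucuronides and glutathione conjugates, rose by 1.34 ± 0.343 (2.54-fold, limma adjusted p = 0.00811) and passed with any 1 pair left out. Abcc2, the apical exporter of such conjugates, fell (−0.90 ± 0.373, limma adjusted p = 0.0240). Abcc2 passed without pair 3 and was lost without pair 1, 2 or 4 (0.0637, 0.0965 and 0.0586). Cth, which makes cysteine from cystathionine, fell by 0.53 on the log2 scale, and Dpep1, a peptidase of glutathione breakdown, by 0.42. With 1 pair left out, Cth passed only without pair 3 and Dpep1 in no case.

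The 24 further peroxidase, thioredoxin and glutaredoxin genes had 0 past the limma threshold and 7 with an unadjusted p under 0.05, a share near the 27.5% of all probe sets. Their mean differences lay between −0.31 (Txnip, an inhibitor of thioredoxin) and 0.29 (Glrx5, a mitochondrial glutaredoxin). Of 34 other NRF2-linked genes 5 rose and 2 fell (20.6%, against 5.86% of all probe sets). The aldo-keto reductase gene Akr1b8 rose by 1.89 ± 0.588 (limma adjusted p = 0.0108), while its relative Akr1c14 fell by 2.08 on the log2 scale (SD 0.529, adjusted p = 0.00652). Both passed with any 1 pair left out. Cbr3, a carbonyl reductase, rose by 1.20 ± 0.222 (limma adjusted p = 0.00444). Its wild-type mean of 5.15 lay under the background level of 5.65, so the size of this difference is uncertain. Me1, a malic enzyme that makes NADPH, rose by 1.08 ± 0.645 (limma adjusted p = 0.0460), with 1.65 and 1.62 in pairs 1 and 2 and 0.56 and 0.48 in pairs 3 and 4, and the call was lost without any 1 pair (0.0641 to 0.14). Adipose markers were also highest in pairs 1 and 2, and their part in the Me1 values was not tested.

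**Figure D4:**
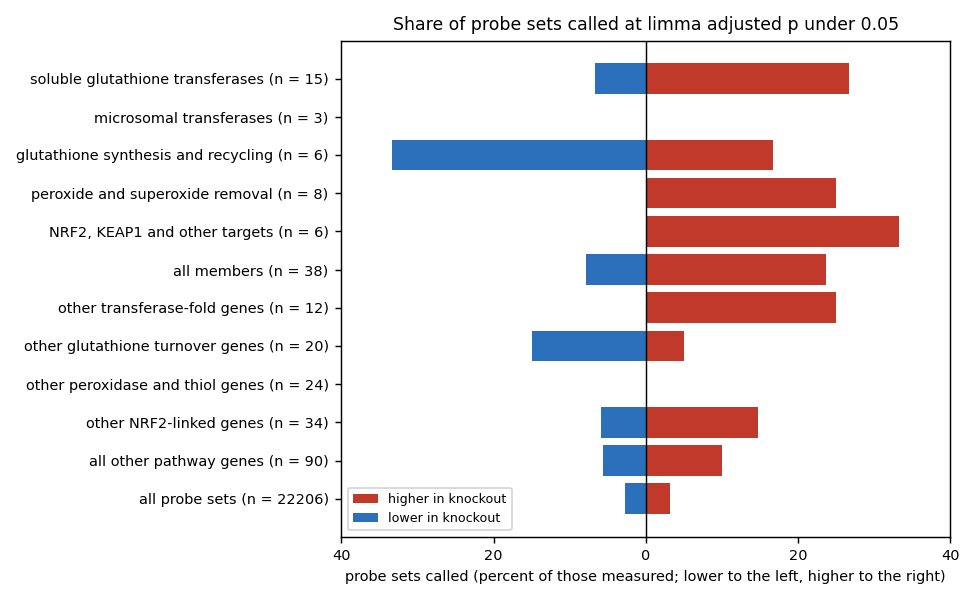
Percentage of measured probe sets past the limma threshold (horizontal axis), lower in knockouts to the left and higher to the right, for each role, for the further pathway lists and for all probe sets. The 38 members reached 31.6% in both directions together, the 90 further pathway genes 15.6% and all 22206 probe sets 5.86%. Members and lists were chosen with earlier results of these data known.

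Cell type markers also differed between siblings. Over all probe sets, 3.16% were higher and 2.7% lower past the limma threshold, and 27.5% had an unadjusted p under 0.05. Acinar markers (9 of 11 measured, 0 past the limma threshold and 5 with an unadjusted p under 0.05) had medians of −0.42, 0.23, −4.04 and −3.39 in pairs 1 to 4, with mean levels of 6.43 to 8.34 in knockouts and 7.89 to 10.6 in wild types. Markers of Brunner glands and stomach (7 of 9) had medians of −0.56, −0.49, −4.35 and −4.26 and mean levels of 4.98 to 6.23 and 6.8 to 8.58. Past the threshold 2 were lower, and Gkn3 and Pgc lay under the background level. All 7 were lower in all 4 pairs, where 17.9% of all probe sets were. Gsr, Gpx2 and Gclm also differed more in pairs 3 and 4 than in pairs 1 and 2, and the part of these cells was not tested. Enterocyte markers (12 of 13) had medians of −0.24, −0.18, −0.115 and −0.705, with 2 lower past the threshold, and Paneth markers (8 of 9) −0.96, −1.01, 0.075 and −1.01, with 1 lower. Stem and cycling markers (7 of 9) had medians of 0.35, 0.27, 0.28 and −0.2, with 2 higher, and B and plasma cell markers (6 of 7) 0.68, 0.62, −0.08 and 0, with 1 higher. T cell markers (8 of 9) had medians of −0.07, −0.175, −0.235 and −0.95, with 1 higher. The part of these cells in the members' values was not tested. Of 6 measured neutrophil markers 5 lay under the background level.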

How the data were processed

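RNA of 8 duodenum samples was read on Clariom S mouse arrays. The deposited log2 values per probe set were made with RMA, and Transcriptome Analysis Console 4.0 is named beside it in the submitters' processing notes; no source used here gives further settings. Array medians lay between 6.77 and 6.81. Probe sets were named from GEO's platform annotation (19572 of 22206 with 1 symbol), and the gene IDs of all 128 pathway probe sets were found in the RefSeq table of GRCm38.p6.

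Knockout and wild type were compared with limma 3.58.1 (R 4.3.3, functions lmFit and eBayes), with the sibling pair as a block, since each knockout had its own littermate as control. Pairing was checked: the deviations of 2 siblings from their groups' means had r of −0.913 to −0.87 over probe sets, with pair means evened out (median SD 0.0175, against 0.179 for differences). Differences correlated more between pairs 1 and 2 (0.682) and pairs 3 and 4 (0.673) than otherwise (0.346 to 0.42), so p-values, which take pairs as independent, may be too small. P-values were two-sided and adjusted by Benjamini-Hochberg over all probe sets, with a threshold of 0.05. Values after ± are SDs of 4 within-pair differences. An exact sign-flip test of 4 pairs cannot go below 0.125. The background level, 5.65, is what 95% of 1091 olfactory receptor probe sets lie below. All 38 measured members had both group means above it.

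The members and lists were chosen with earlier results of these data known. Members that passed and moved 1 way in every pair were named, with the 2 largest others of each role, and up to 4 called genes of each further list. The script was tested on simulated data. Other settings are given in the closing section.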

Additional observations from a re-analysis of the deposited data

Results flagged for a closer look

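The 4 pair differences of each of the 38 members were searched for 1 pair that stood apart, measured as its gap to the nearest other pair divided by the whole range. Chance flags about 1 in 20 such groups, and 2 of the 38 members were singled out. For Hmox1 the ratio was 0.87: the siblings of pair 3 differed by 0.17, and those of the other pairs by 0.77, 0.80 and 0.86. Pair 3 also had the smallest fall of Nfkbia (−1.29, against −2.93, −3.26 and −3.13), and the part of this in the Hmox1 value was not tested. For Prdx1 the ratio was 1, with a difference of −0.05 in pair 2 and −0.04 in the other pairs, which is the last digit of the deposited values.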

How the results depend on the processing

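Without the replicate block, which treats paired siblings as independent, limma called 26 members (21 higher, 5 lower), 37 further pathway genes and 7648 of all probe sets, against 12 (9 and 3), 14 and 1301 with it. Leaving out 1 pair gave 3 to 7 members (2 to 6 higher, 1 lower each time), 4 to 7 further genes and 145 to 459 of all. Gsta3, Gsr and Hagh passed in all 4 such fits, and Gstm2, Gstk1, Gclm and Gpx1 in none. With pairs 1 and 2 alone limma called 0 members, 0 further genes and 0 of all (16, 43 and 5278 at an unadjusted p under 0.05), and with pairs 3 and 4 alone 0, 0 and 26 (20, 29 and 4144). With the labelled sex beside the block 7 members (5 higher), 4 further genes and 464 of all were called. With RNA integrity these counts were 6 (4 higher), 4 and 364. RNA integrity ended the calls of Gstm2, Gstp1, Gclm, Gpx1, Gpx2 and Hmox1, and sex those of Gstm1, Gstm2, Gstp1, Gclm and Gpx1. Centring on housekeeping genes gave 14 members (9 higher, 5 lower), 27 further genes and 5673 of all, of which 8.78% were higher against 54% as deposited, and it moved the members' median difference to 0.0474. Centring on epithelial genes gave 12 members, 11 of them shared, without Gpx1 and with Gsta2, and 35.8% of all calls were higher. Trend and robust variance gave 17 members (5 lower) and 1997 of all, and the random block 10 and 2018. The random block ended the calls of Gstm1, Gstm2, Gstk1 and Gclm and added Mgst2 and Keap1. At an adjusted p of 0.10, 21 members (16 higher, 5 lower) and 3304 of all passed. A filter on dim probe sets gave 13 members (34.2%, against 9.15% of all probe sets kept). Quantile normalization gave 12, without Gstm1 and with Cat. Centring on housekeeping genes lowered every difference, since these genes were themselves higher in knockouts (median 0.192). Otherwise the causes of these changes were not tested, beyond the fewer pairs of the fits that leave some out. All 12 genes kept their direction in every setting run. For fits of fewer pairs this was fixed in advance, since each gene moved 1 way in all 4 pairs. Fits without the block, with sex, with the dim filter, with trend and robust variance or with the random block returned the same differences. Their direction could not change either. The number of arrays limits precision, with 3 residual degrees of freedom.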
